A study of Mus musculus with 12 samples.

Results

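The genes described here encode the components of the basement membrane, and 31 were listed by name: 6 type IV collagen chains, 10 laminin chains, 2 nidogens, the proteoglycans and collagens that fill the sheet, and proteins that link it to cells or to the stroma. The list names genes by their role in the basement membrane, and a gene was a member when at least 1 array probe carried one of its transcript accessions. All 31 had a probe, of 20144 genes with a probe on the array. The members were read by 45 probes, 20 of them by 1 probe each and 11 by more than 1.

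The RNA came from cultured cells of Dunn, a mouse osteosarcoma cell line, and of LM8, a line with more metastatic activity that was derived from Dunn by selection in mice. Each line was profiled at an early and at a late passage, which gives the groups Dunn_25 and Dunn_86 (passages 25 and 86 of Dunn) and LM8_24 and LM8_91 (passages 24 and 91 of LM8), with 3 arrays a group and 12 arrays in all. No agent was given and no allele was engineered, all groups grew in the same DMEM and Ham F12 medium with fetal calf serum, and each group is 1 line at 1 passage, so that other isolates of Dunn or LM8 are not represented. The 3 RNA samples of a group came from frozen pellets of the same line, and nothing in the sources used here says whether these were separate cultures, so the p-values measure the spread between these samples, which may be technical.

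A basement membrane is a thin sheet of extracellular matrix under epithelia and endothelia and around muscle, fat and nerve cells. Laminin trimers, each made of an alpha, a beta and a gamma chain, assemble on the cell surface, type IV collagen trimers form a crosslinked network of their own, and nidogens and perlecan bridge both networks. The alpha chain largely sets which receptors a laminin binds, and the collagen chains of types alpha 1 and alpha 2 make the network that most basement membranes share. Osteoblasts and the tumours that resemble them lie in an interstitial matrix of type I collagen, but mesenchymal cells in culture transcribe several of these genes.

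Type IV collagen genes lie in the genome as head-to-head pairs, Col4a1 with Col4a2, Col4a4 with Col4a3 and Col4a6 with Col4a5, and the results below turn most on the first of these. The stretch around the starts of Col4a1 and Col4a2 is shown because both genes are read outward from it, on opposite strands. In RefSeq (GRCm38.p6) it lies at chr8:11312801-11312830 and is given on the + strand, and the capitals mark the 22 bases from the start of Col4a2 at 11312805 to the start of Col4a1 at 11312826, the starts that the promoter table uses. The annotated span of the Col4a1 gene reaches past the right end of the stretch, so the lower-case bases on that side lie within both genes too.
Col4a1 and Col4a2: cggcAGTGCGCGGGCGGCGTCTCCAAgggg

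The bases before the outermost annotated starts of Hspg2 and Lamb2 are shown as well, since both genes had lower mean values in LM8 cells than in Dunn cells at both passages. For Lamb2 the late difference had an adjusted p of 0.0625 in limma, and the limits for both genes are given below. The bases come from RefSeq (GRCm38.p6), + strand, at chr4:137468553-137468750 for Hspg2 and chr9:108479612-108479846 for Lamb2, and neither stretch overlaps another annotated gene. Capitals mark matches to a GC box, spelled GGGCGG. The letters CCAAT were searched as the box of that name. A TATA box was searched as TATAAA, and each motif on both strands.
Hspg2: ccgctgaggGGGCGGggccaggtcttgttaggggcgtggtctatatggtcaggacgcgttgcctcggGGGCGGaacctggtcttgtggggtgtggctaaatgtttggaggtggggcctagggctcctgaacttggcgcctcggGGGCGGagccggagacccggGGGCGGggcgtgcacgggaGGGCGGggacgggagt
Lamb2: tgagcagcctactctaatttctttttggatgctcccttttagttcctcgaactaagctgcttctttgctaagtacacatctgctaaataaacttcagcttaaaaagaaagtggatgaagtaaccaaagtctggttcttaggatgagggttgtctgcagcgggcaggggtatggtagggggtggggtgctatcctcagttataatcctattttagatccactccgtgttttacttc

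The Hspg2 stretch held 5 GC boxes and the Lamb2 stretch held none of the 3 motifs. Over the promoter windows of all genes a GC box was present in 35.7% of 32851 windows, a CCAAT box in 37.4% and a TATA box in 13.6%. Of the members, 21 genes had 28 windows in the table, and a GC box was present in 17 of these windows, a CCAAT box in 11 and a TATA box in 0. These are matches of letters in the reference, and no binding was measured.

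All values are log2 of the processed spot signal minus log2 of the 75th percentile of that array, so that 0 is the brightness of the probe at the 75th percentile, and levels of different probes are not set against each other. That percentile was lowest in Dunn_25 (287.2 to 603 units) and higher in Dunn_86 (685.9 to 961.4), LM8_24 (893 to 1316) and LM8_91 (1166 to 1903). The share of probes well above background, the scanner software's test of a spot against its background, ran from 39% to 49% in Dunn_25, 52.4% to 59.6% in Dunn_86, 53.7% to 56% in LM8_24 and 55.5% to 59.1% in LM8_91. Replicates correlated at 0.961 to 0.974, 0.919 to 0.986, 0.984 to 0.987 and 0.989 to 0.991 in the same order, and replicate 1 of Dunn_86 stood apart from the other two. No spot was saturated. The 4 arrays that carry the same replicate number lay on 1 slide, and every slide held 1 array of each group at the same position, so the position on the slide and the group cannot be told apart.

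Of 9 measured markers of the osteoblast lineage, 4, 5, 8 and 9 were well above background on all 3 arrays of Dunn_25, Dunn_86, LM8_24 and LM8_91, and Runx2, Sp7, Col1a1 and Ibsp were so on every array. Spots with an outlier flag, which were left out, lowered these counts in part. No array was left out for Phex and Dmp1. Phex was well above background on 1, 2, 3 and 3 arrays by group and Dmp1 on 2, 2, 3 and 3. LM8 exceeded Dunn in Phex by 4.34 at early (adjusted p 0.0307 in limma) and by 3.12 at late passage (0.026). For Dmp1 the differences were -0.20 (adjusted p 0.595 in limma) and 2.95 (0.0835). At the adjusted level 1 of the 9 markers was higher in LM8 and 0 were lower at either passage. Col1a2 (n = 1), Alpl and Spp1 (n = 2 each) in Dunn_25 were well above background on every array kept. So were Col1a2 and Spp1 (n = 2 each) in Dunn_86 and Col1a2 (n = 2) in LM8_24. The endothelial markers Cdh5, Tie1 and Emcn and the epithelial markers Cdh1 and Krt8 were well above background on 0 arrays. Others of these lists were detected: epithelial Krt14 on 2, 3, 3 and 3 arrays by group and endothelial Pecam1 on 0, 2, 2 and 3. Krt5 was detected on 2 arrays of LM8_91, Tek and Krt18 on 1 array of Dunn_86, and Epcam on 1 array each of Dunn_86 and LM8_24. Over the 6 endothelial markers the summed linear level relative to the 75th percentile was 1.02 to 1.8, 0.638 to 1.25, 0.578 to 0.841 and 0.632 to 0.796 by group, and Kdr, the receptor of vascular endothelial growth factor, was detected on every array. For the 6 epithelial markers the sum was 0.111 to 0.245, 0.0837 to 0.614, 0.0943 to 0.123 and 0.0759 to 0.0895. Of 3 measured markers of macrophages and other blood cells, Csf1r was detected on every array, and their sum was 0.162 to 0.278, 0.146 to 0.266, 0.206 to 0.232 and 0.121 to 0.24. Of 5 muscle and pericyte markers, 4 could be summed, at 8.73 to 14.2, 6.49 to 7.98, 3.67 to 5.54 and 3.6 to 4.2, and Myh11 and Rgs5 were near background. Acta2, smooth muscle actin, was left out of that sum because its spots carried an outlier flag on some array, and its group means were 7.44, 5.80, 4.25 and 0.23. Cspg4, with means of 3.49, 2.82, 2.18 and 1.87, made up most of the sum. Des did not follow this order, at -4.09, -2.18, -3.68 and -2.89. The values of Acta2 and Cspg4 were lower in the groups in which several members described below were lower. Their part in the differences of the members was not tested. In cultures read in bulk, fewer cells of a type and less RNA per cell cannot be told apart.

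Of the 31 members, 13 were well above background on all 12 arrays, 13 on some and 5 on none by any of their probes. Detection on all 3 arrays of a group was reached by 16 members in Dunn_25, 18 in Dunn_86, 20 in LM8_24 and 22 in LM8_91. The 5 without detection were Col4a3 and Col4a5 (chains of the kidney, lung and inner ear networks), Lamc3 (a gamma chain), Nid1 (nidogen-1, read by 3 probes) and Smoc2 (a calcium-binding matrix protein). No fold change is given for them.

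**Figure D1:**
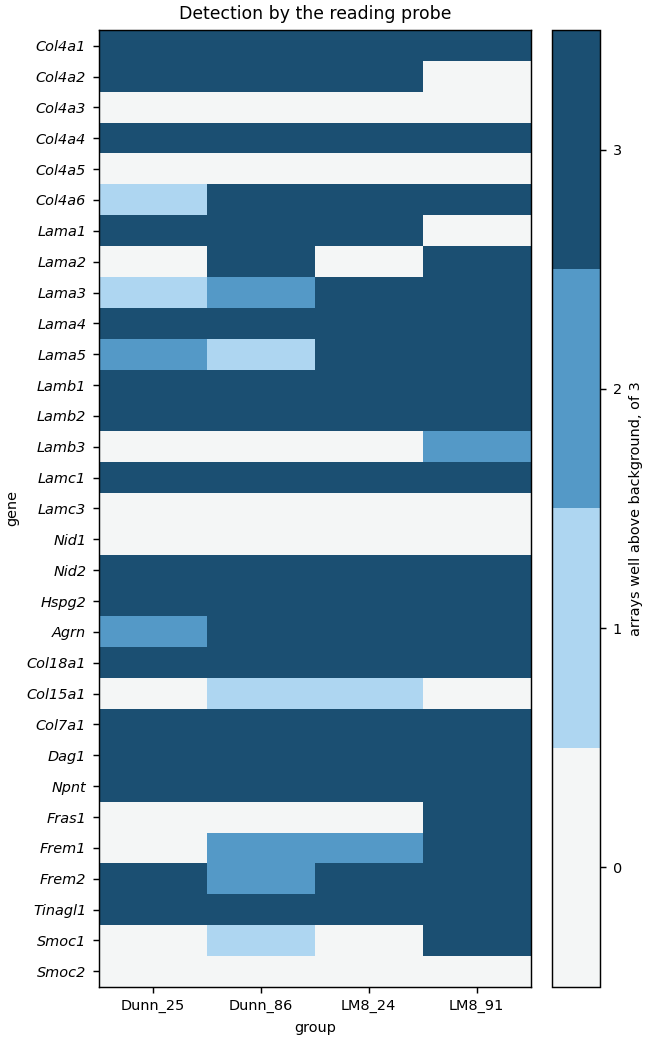
Number of arrays, of 3 in each group, on which the reading probe of each member (rows) was well above background, by group (columns). Col4a3, Col4a5, Lamc3, Nid1 and Smoc2 are at 0 in every group, and Smoc1, Fras1 and Frem1 reach 3 in LM8_91 only. Agrn is at 2 in Dunn_25 because its spot on replicate 2 carried an outlier flag and was left out.

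Differences were tested with limma over all 39429 probes, and a member counted as called at the level of the study when its fold was over 2 and its unadjusted p was under 0.05, and at the adjusted level when the Benjamini-Hochberg adjusted p was under 0.05 as well. The words rose and fell are kept for differences called at the adjusted level. From early to late passage in Dunn cells, 10 of 31 members were called at the level of the study, 4 higher and 6 lower, where 4.86% of all genes were called, 1.34% higher and 3.52% lower. Among genes well above background on all 6 arrays, 7 of 15 members and 6.46% of all genes were called. None was called at the adjusted level, which 0.00497% of all genes reached, while 11 members had an unadjusted p under 0.05 and the methods' t-test also gave 0 after adjustment. On the unscaled deposited values the split was 6 higher and 3 lower, and with quantile normalization 2 and 5. Leaving out 1 array gave counts of 5 to 11, with 5 without Dunn_86 replicate 3 and 6 each without Dunn_25 replicate 1 and without Dunn_86 replicate 2. The calls of Col18a1, Lama1, Lama2, Lamb2 and Nid2 were lost in 3 to 5 of these 6 fits, and each of the 6 arrays, left out, ended at least 2 of them. In the Dunn groups, arrays of the same slide deviated together in all 3 pairs (r from 0.222 to 0.683), and with the slide as a block 11 members and 15.3% of all genes (3087 against 978) were called, with 0 members at the adjusted level. The adjusted level was reached by 5 members in 1 fit over all 12 arrays, which pools the spread of the 4 groups.

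In LM8 cells, 9 of 31 members were called between early and late passage, 3 higher and 6 lower, where 7.29% of all genes were called, 2.54% higher and 4.75% lower. Among genes detected on all 6 arrays, 4 of 18 members and 4.64% of all genes were called. At the adjusted level 6 members were called, 1 higher and 5 lower, against 2.82% of all genes, 1.00% higher and 1.82% lower. The unscaled values gave 4 higher and 4 lower. With the slide as a block, 4 members passed the adjusted level (Col4a2, Lama1, Lama5 and Smoc1), while Col4a1 had an adjusted p of 0.051 and Frem2 of 0.0955. In 1 fit over all 12 arrays Col4a1 (0.0898), Frem2 (0.252) and Smoc1 (0.138) did not pass it. The median log2 change over the 31 members was -0.33 in Dunn and -0.42 in LM8 cells, beside -0.34 and -0.18 over all genes, and 20 and 21 members were below 0. Without scaling the medians of all genes were 0.62 and 0.19, those of the members 0.63 and -0.06, so directions are relative to the scaling.

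**Figure D2:**
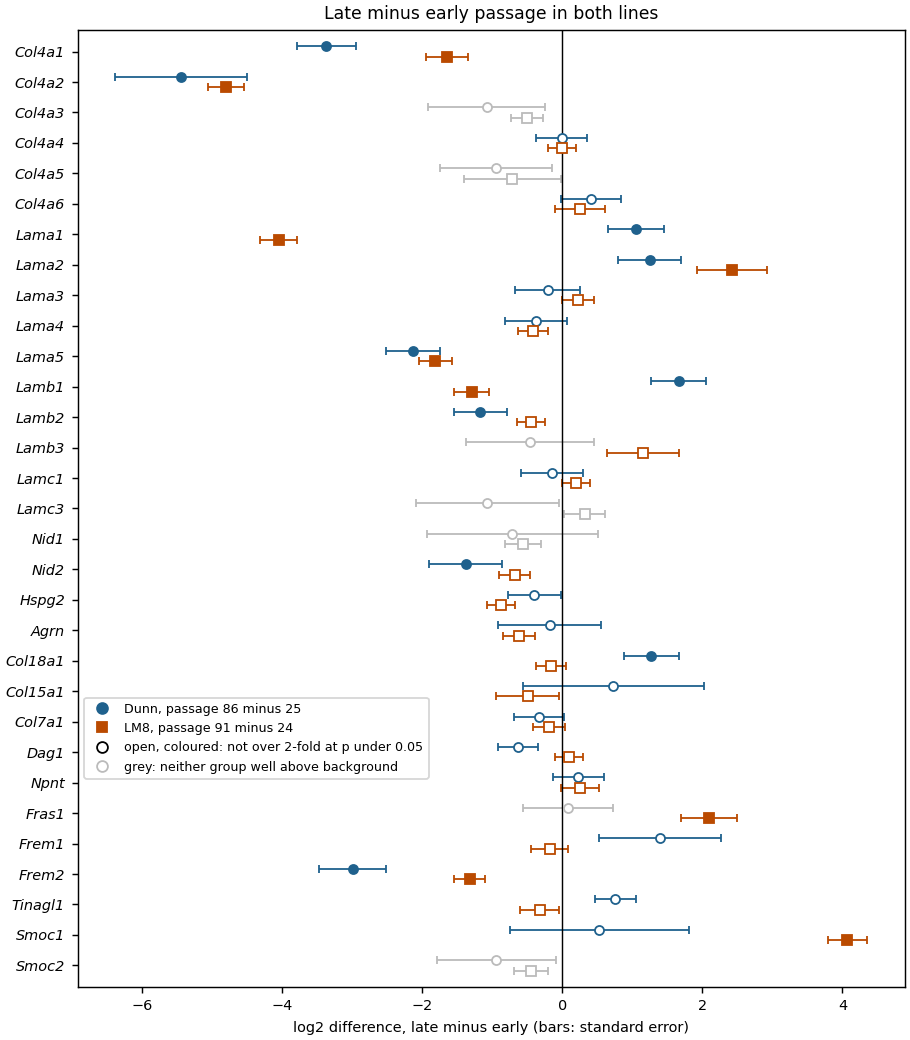
Late minus early passage for the 31 members, as log2 difference (x axis) with standard error bars, in Dunn (blue circles) and LM8 (orange squares). Filled symbols were over 2-fold at an unadjusted p under 0.05, open coloured symbols were not, and grey symbols mark comparisons in which neither group was well above background. Col4a1, Col4a2, Lama5 and Frem2 lie to the left in both lines, whereas Lama1 and Lamb1 lie on opposite sides of 0; the Dunn difference of Lama2 changes sign with another background correction.

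Between the lines at early passage (LM8_24 against Dunn_25), 16 of 31 members were called, 1 higher and 15 lower, in a comparison in which 36.7% of all genes were called, 4.60% higher and 32.1% lower. Among genes detected on all 6 arrays, 10 of 16 members and 20.3% of all genes were called. Of the 16 called among all 31 members, 6 were not well above background in either group (Lamb3, Nid1, Col4a3, Lama2, Smoc2 and Smoc1). The split turned to 9 higher and 4 lower on the unscaled values, and quantile normalization gave 2 and 10. At the adjusted level 7 members were called, 1 higher and 6 lower, against 4.55% of all genes, 1.33% higher and 3.22% lower. With the slide as a block 2 passed, Col4a2 (adjusted p 0.0195 in limma) and Col18a1 (0.0442), while Col4a1, Lama1, Lamb2, Nid2 and Hspg2 were at 0.0517 to 0.084. At late passage (LM8_91 against Dunn_86), 11 were called, 2 higher and 9 lower, where 13.3% of all genes were called, 4.83% higher and 8.50% lower, and the unscaled values gave 6 and 6. Among genes detected on all 6 arrays, 8 of 16 members and 13.3% of all genes were called. The adjusted level was passed by 6 members, all lower, against 3.83% of all genes and 2.59% lower. With the slide as a block Lama1 passed it (0.0428), while Lama4, Lamb1, Nid2, Hspg2 and Tinagl1 were at 0.0766 to 0.137. Member medians were -1.40 and -0.63 at early and late passage, beside -0.76 and -0.55 over all genes, and without scaling 0.07 and 0.24 beside 0.71 and 0.32. The change with passage differed between the lines for 2 members, Lama1 and Lamb1, at an adjusted p under 0.05, where 0.606% of all genes did and 0.258% had the lower change in LM8, as both members had. The 4 comparisons share arrays pairwise, so they are given side by side.

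**Figure D3:**
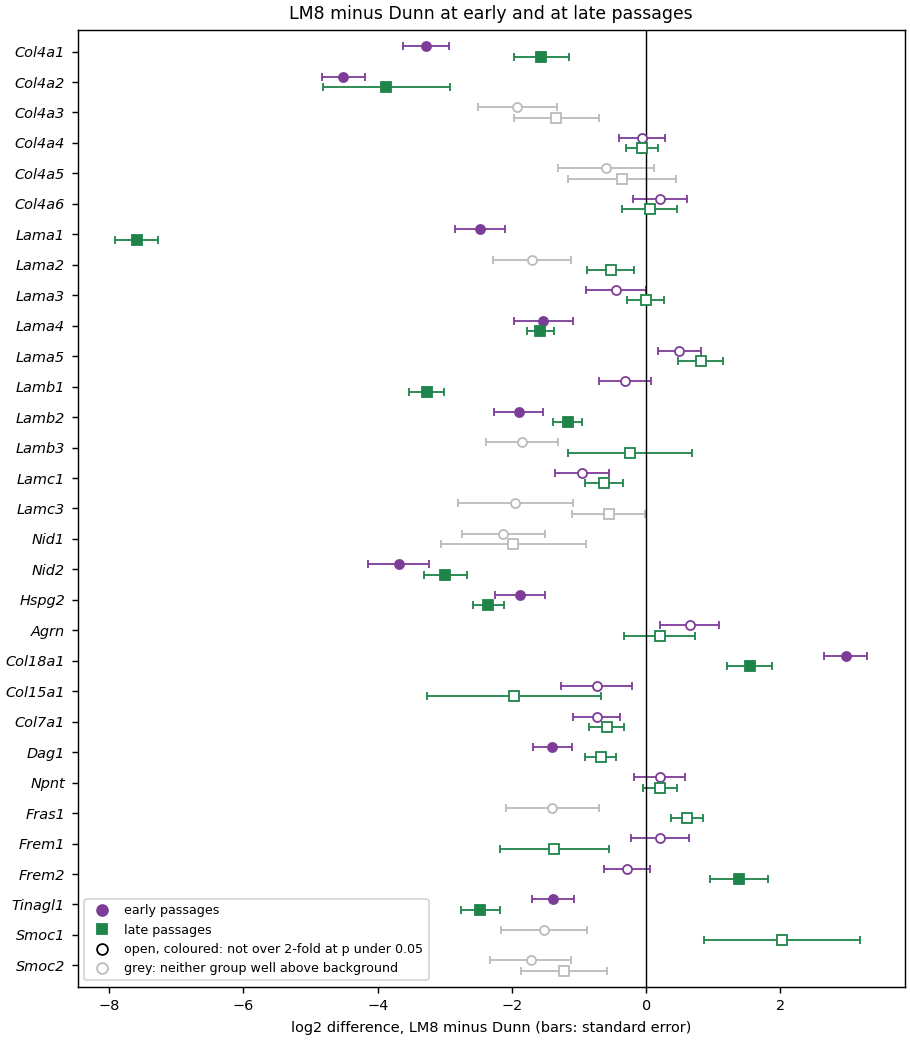
LM8 minus Dunn for the 31 members, as log2 difference (x axis) with standard error bars, at early (purple circles) and late passages (green squares), with filled, open and grey symbols as in the plot of passage changes. Lama1, Nid2 and Hspg2 lie to the left at both passages and Col18a1 to the right; Lamb1 is near 0 at early and at -3.27 at late passage. Dag1 and Tinagl1 at early passage change sign on unscaled values, and Smoc1 with quantile normalization.

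Both chains of the common type IV collagen network were lower at late than at early passage in both lines. Col4a1, the alpha 1 chain, measured 0.25, 0.21 and 0.64 on the arrays of Dunn_25 and -2.30, -3.20 and -3.5 on those of Dunn_86. In LM8_24 it measured -2.69, -2.67 and -3.38 and in LM8_91 -4.61, -4.15 and -4.91. Early Dunn cells were highest and late LM8 cells lowest, and the early and late groups of a line did not overlap. The log2 difference with passage was -3.37 (SE 0.42) in Dunn, with an adjusted p of 0.211 in limma, and -1.65 (SE 0.30, adjusted p 0.0477) in LM8, which is 10.3-fold and 3.13-fold lower. Within the 3 slides the Dunn differences were -2.55, -3.41 and -4.14, and those in LM8 -1.92, -1.48 and -1.53. The LM8 call held in 1 of 6 fits that left out an array, without LM8_24 replicate 3, with adjusted p-values of 0.0359 to 0.189 over the 6, and the difference was -1.28 (0.347) on unscaled values and -1.04 (0.0683) with normexp background correction.

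Col4a2, the alpha 2 chain, measured 0.71, 0.40 and 1.09 in Dunn_25 and -2.63, -6.04 and -5.46 in Dunn_86. It measured -3.78, -3.95 and -3.59 in LM8_24, and in LM8_91 its values of -8.25, -8.45 and -9.02 were not well above background. As for Col4a1, Dunn_86 and LM8_24 overlapped each other and the other groups did not, and replicate 1 of Dunn_86 was the highest of its group for both genes. In Dunn the difference was -5.44 (SE 0.94, adjusted p 0.394 in limma), 43.5-fold lower, and without replicate 1 of Dunn_86 it was the only member in that comparison to pass the adjusted level (0.0239). In LM8 it fell at least 14.8-fold (log2 difference -4.80, SE 0.26, adjusted p 0.000549), with -4.48, -4.50 and -5.43 within the slides. An "at least" fold sets the bright group against the lowest signal that the software held to be well above background on each dim array. It holds on the scale of the processed signal, and with normexp background correction, which adds an offset, the LM8 difference of Col4a2 was -1.46 (adjusted p 0.0117).

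At early passage both chains were lower in LM8 than in Dunn, with log2 differences of -3.28 for Col4a1 (9.72-fold, adjusted p 0.00528 in limma) and -4.51 for Col4a2 (22.7-fold, adjusted p 0.00149), and both calls held without any 1 array, although Col4a1 did not pass with the slide as a block. On unscaled values the differences were -1.81 and -3.04. At late passage the differences were -1.56 (adjusted p 0.132) and -3.87 (adjusted p 0.113, at least 7.74-fold, and -1.45 with normexp). The change of Col4a1 with passage was 1.72 smaller in size in LM8 than in Dunn, which did not pass the adjusted level (interaction adjusted p 0.387).

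The remaining chains gave another picture. Col4a4 was detected on every array by its brightest probe, whose group means lay between -2.23 and -2.31, with log2 differences of -0.01 with passage in either line. Its other probes did not bear out this detection. Of these, A_55_P2009918 was well above background on 0 arrays and A_55_P2143837 on 1 array of Dunn_86 only. The latter differed by -1.38 with passage in LM8 (adjusted p 0.266 in limma), where neither group was well above background. Col4a6 was read by 2 probes that disagreed. The brighter probe differed by 0.41 in Dunn and 0.25 in LM8, while the other averaged -4.08 in LM8_24, was not well above background in LM8_91, and fell at least 12-fold (log2 difference -4.67, adjusted p 0.000823 in limma).

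Among the laminin alpha chains, Lama1 separated the lines most. Lama1 is the chain of the early embryonic laminin. It measured -2.48, -2.53 and -1.59 in Dunn_25, -1.5, -0.88 and -1.05 in Dunn_86 and -4.77, -4.77 and -4.50 in LM8_24, and its values of -8.85, -8.28 and -9.07 in LM8_91 were not well above background. No 2 groups overlapped. With passage it differed by 1.05 (SE 0.40, adjusted p 0.782 in limma) in Dunn, a call at the level of the study that was lost in 4 of 6 fits that left out an array, without Dunn_25 replicate 1 or 2 or Dunn_86 replicate 2 or 3. In LM8 it fell at least 7.90-fold (log2 difference -4.05, SE 0.26, adjusted p 0.000929), with -4.08, -3.51 and -4.58 within the slides, but with normexp background correction the difference was -0.97 (adjusted p 0.121) and the call was lost.

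The change of Lama1 with passage differed between the lines by -5.11 (SE 0.46, interaction adjusted p 0.00145 in limma), a size that includes a dim group and so rests on values near background. It was -4.04 (adjusted p 0.0221) with dim signals set to the lowest detected signal and -1.48 (adjusted p 0.578) with normexp background correction. LM8 cells were lower than Dunn cells at early passage (log2 difference -2.48, 5.59-fold, adjusted p 0.0193 in limma) and at least 91.7-fold lower at late passage (log2 difference -7.59, adjusted p 0.000885), or -3.53 (0.000891) with normexp. On unscaled values the early difference was -1.02 (adjusted p 0.164). The early call was lost without Dunn_25 replicate 3 or any 1 array of LM8_24 (adjusted p up to 0.114).

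**Figure D4:**
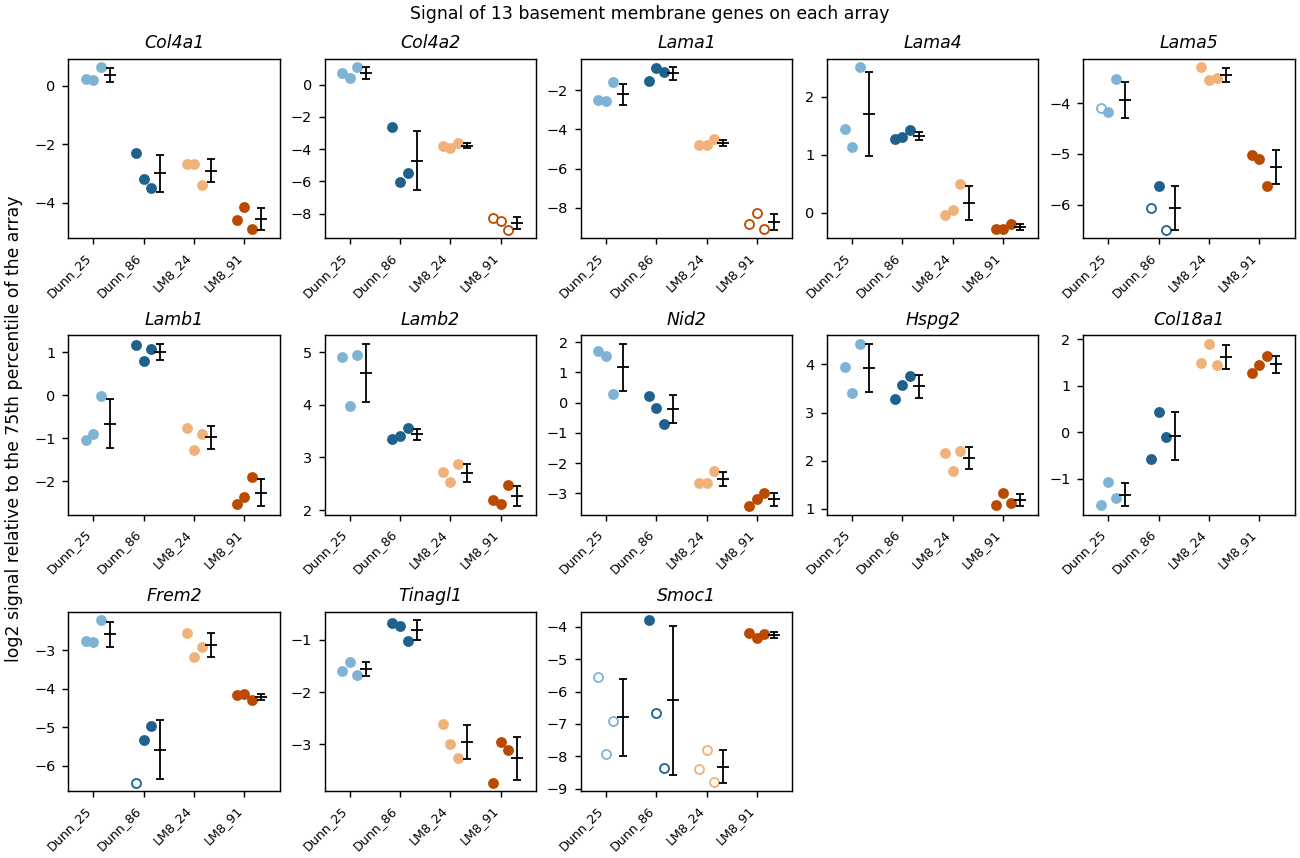
Log2 signal relative to the 75th percentile of the array (y axis, scaled per gene) for the 13 members described by array, in the 4 groups. Filled points were well above background, open points were not, and the black bar gives the group mean and SD of 3 arrays. Lama1 and Col4a2 drop to open points in LM8_91, and Smoc1 is filled on all arrays of that group.

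Lama4, the alpha chain of vessels, fat and muscle, measured 1.44, 1.14 and 2.51 in Dunn_25, 1.28, 1.30 and 1.42 in Dunn_86, -0.04, 0.04 and 0.50 in LM8_24 and -0.28, -0.29 and -0.19 in LM8_91. Every LM8 array was below every Dunn array. The line difference was -1.53 at early passage (adjusted p 0.0776 in limma) and -1.58 at late passage (3-fold, SE 0.20, adjusted p 0.0183), and the late call held only in the fit without Dunn_86 replicate 1 among the 6 that left out an array (adjusted p up to 0.148). Unscaled values gave line differences of -0.06 and -0.72, not called at the adjusted level. With passage the differences were -0.37 in Dunn and -0.42 in LM8, neither called.

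Lama5, the main alpha chain of adult epithelia and vessels, measured -4.10, -4.18 and -3.53 in Dunn_25 and -6.07, -5.64 and -6.50 in Dunn_86, and some of these were near background, as 2 early and 1 late array were well above it. It measured -3.29, -3.55 and -3.5 in LM8_24 and -5.03, -5.10 and -5.64 in LM8_91, all detected. Late cells were lower than early cells in both lines with no overlap. The difference was -2.13 (SE 0.38, adjusted p 0.407 in limma) in Dunn and -1.81 (SE 0.23, adjusted p 0.0120, 3.5-fold) in LM8, where leaving out LM8_24 replicate 1 gave an adjusted p of 0.0567. The LM8 difference was -1.44 (adjusted p 0.123) on unscaled values and -0.96 (0.114) with normexp.

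Lama2, the muscle and nerve alpha chain, was well above background at late passage only, on 3 of 3 arrays in either line, and was higher by at least 1.80-fold in Dunn (adjusted p 0.782 in limma) and at least 5.15-fold in LM8 (adjusted p 0.0760). Its Dunn difference was 1.25, but -0.76 with normexp background correction, and its LM8 difference of 2.42 was then 0.36 (adjusted p 0.759). A second Lama2 probe was well above background on 0, 2, 0 and 3 arrays by group. With passage it differed by 0.40 in Dunn (adjusted p 0.924 in limma) and by 1.41 in LM8 (0.0611). Lama3, a chain of skin laminin, was detected on 1, 2, 3 and 3 arrays by group with differences of -0.21 and 0.22 with passage. Its second probe was well above background on 0 arrays.

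Of the beta and gamma chains, Lamb1, the beta chain of most embryonic laminins, went opposite ways in the lines. It measured -1.05, -0.91 and -0.01 in Dunn_25 and 1.16, 0.79 and 1.07 in Dunn_86, but -0.76, -1.28 and -0.90 in LM8_24 and -2.53, -2.36 and -1.91 in LM8_91. The early groups overlapped each other and the late groups lay on either side of them. The difference with passage was 1.66 in Dunn (SE 0.39, adjusted p 0.573 in limma) and -1.29 in LM8 (SE 0.25, adjusted p 0.0611), with 2.21, 1.70 and 1.08 and with -1.77, -1.07 and -1.01 within the slides.

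The difference between these changes of Lamb1 was -2.95 (SE 0.45, interaction adjusted p 0.0255 in limma). It passed the adjusted level in 2 of 12 fits that left out an array, without Dunn_25 replicate 3 (0.0119) and without Dunn_86 replicate 1 (0.0279), and reached up to 0.107 in the other 10. At early passage the lines differed by -0.32 (adjusted p 0.534) and at late passage LM8 was lower (log2 difference -3.27, 9.67-fold, SE 0.26, adjusted p 0.00509), which was lost without LM8_91 replicate 2 (0.0574) and with the slide as a block (0.0766).

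Lamb2, the beta chain of muscle synapses and kidney, measured 4.90, 3.97 and 4.95 in Dunn_25, 3.35, 3.41 and 3.55 in Dunn_86, 2.72, 2.53 and 2.87 in LM8_24 and 2.20, 2.11 and 2.48 in LM8_91. The groups came in this order, from high to low, with no overlap. LM8 was lower than Dunn at early passage (log2 difference -1.90, 3.74-fold, SE 0.37, adjusted p 0.0461 in limma) and the difference was -1.17 at late passage (adjusted p 0.0625); the early call held only in the fit without Dunn_25 replicate 2 among those that left out an array. The early difference was -0.43 (adjusted p 0.565) on unscaled values. With passage the differences were -1.17 in Dunn (adjusted p 0.782) and -0.44 in LM8 (adjusted p 0.297). Lamc1, the gamma chain found in most laminins, was detected on every array and differed by -0.15 and 0.19 with passage, and by -0.96 (adjusted p 0.113) and -0.63 (adjusted p 0.279) between the lines. Lamb3, a chain of skin laminin, was detected on 2 arrays of LM8_91 and on none of the other groups.

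Nid2, nidogen-2, a bridge between laminin and collagen IV, measured 1.70, 1.53 and 0.27 in Dunn_25, 0.23, -0.17 and -0.69 in Dunn_86, -2.65, -2.66 and -2.25 in LM8_24 and -3.43, -3.19 and -2.99 in LM8_91. All LM8 arrays were below all Dunn arrays. LM8 was lower at early passage (log2 difference -3.69, 12.9-fold, SE 0.45, adjusted p 0.00976 in limma) and at late passage (-2.99, 7.95-fold, SE 0.32, adjusted p 0.0113), and either call was lost without any 1 of the 3 LM8 arrays of that comparison (adjusted p up to 0.0709 and 0.0922). On unscaled values the line differences were -2.22 (adjusted p 0.0566) and -2.13 (0.0998). The passage differences of Nid2 were -1.38 for Dunn, at an adjusted p of 0.782, and -0.68 for LM8, at 0.238.

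Hspg2, perlecan, a heparan sulfate proteoglycan that binds growth factors, measured 3.95, 3.41 and 4.42 in Dunn_25, 3.27, 3.58 and 3.75 in Dunn_86, 2.16, 1.78 and 2.21 in LM8_24 and 1.09, 1.33 and 1.12 in LM8_91. The Dunn groups overlapped and both LM8 groups lay below them. LM8 was lower at early passage (log2 difference -1.88, 3.69-fold, SE 0.37, adjusted p 0.0456 in limma) and at late passage (-2.35, 5.12-fold, SE 0.23, adjusted p 0.00935), and a second probe gave -1.94 and -2.61. The early call held only without Dunn_25 replicate 2, and the late call without Dunn_86 replicate 1 or 2, among the fits that left out an array. Unscaled values gave line differences of -0.41 (adjusted p 0.578) and -1.49 (0.157). With passage the differences were -0.40 in Dunn and -0.87 (adjusted p 0.114) in LM8.

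Col18a1, the chain of collagen XVIII, from which endostatin is cut, was the 1 member called higher in LM8 than in Dunn at both passages. It measured -1.57, -1.08 and -1.41 in Dunn_25, -0.58, 0.44 and -0.11 in Dunn_86, 1.5, 1.91 and 1.45 in LM8_24 and 1.28, 1.44 and 1.65 in LM8_91. LM8 was higher than Dunn at early passage by 2.97 (7.83-fold, SE 0.32, adjusted p 0.00564 in limma), which held without any 1 array and was 4.44 on unscaled values, and the difference was 1.54 (adjusted p 0.0855) at late passage. A second probe gave 3.1 and 1.64. In Dunn it was 1.27 higher at late passage (adjusted p 0.776) and in LM8 it differed by -0.16.

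Agrn, agrin, which organises synapses, was left out on 1 array of Dunn_25 and had group means of 2.78 (n = 2), 2.61, 3.43 and 2.81, with no call. Its dimmer second probe, well above background on 0, 3, 3 and 1 arrays by group, disagreed and was called at the level of the study in LM8 with passage (-1.11, adjusted p 0.278 in limma) and between the late lines (-2.45, adjusted p 0.151). Col15a1, the chain of collagen XV, was detected on 1 array each of Dunn_86 and LM8_24. Col7a1, the anchoring fibril collagen of skin, was detected throughout at group means of -1.27, -1.60, -2.01 and -2.20 and was not called in any comparison.

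Among the linkers, Frem2, which with Fras1 and Frem1 holds the embryonic epidermis to the dermis, measured -2.77, -2.79 and -2.22 in Dunn_25 and -6.45, -5.34 and -4.97 in Dunn_86, the first of which was not well above background. It measured -2.56, -3.18 and -2.91 in LM8_24 and -4.16, -4.15 and -4.30 in LM8_91. The early groups of both lines overlapped and both late groups lay below them. The difference was -2.99 in Dunn (7.96-fold, SE 0.48, adjusted p 0.357 in limma) and -1.32 in LM8 (2.50-fold, SE 0.22, adjusted p 0.0336), with -3.68, -2.55 and -2.75 and with -1.60, -0.97 and -1.40 within the slides. The LM8 call held only without LM8_24 replicate 2 (adjusted p up to 0.165 otherwise), and the difference was -0.96 (0.305) on unscaled values and -0.91 (0.127) with normexp. At late passage LM8 exceeded Dunn by 1.38 (adjusted p 0.180).

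Fras1 was well above background in LM8_91 only, on 3 of 3 arrays, at least 3.42-fold above LM8_24 (log2 difference 2.09, adjusted p 0.0557 in limma), while with normexp the difference was 0.22. Frem1 was detected on 0, 2, 2 and 3 arrays by group and was not called. Dag1, dystroglycan, a laminin receptor, had means of 2.85, 2.22, 1.45 and 1.54, and its early line difference of -1.40 had an adjusted p of 0.0507 and was 0.07 on unscaled values. Npnt, nephronectin, an integrin ligand, kept means of 0.77, 1.00, 0.96 and 1.21 and was not called.

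Tinagl1, a matrix protein related to cathepsins, measured -1.59, -1.43 and -1.67 in Dunn_25, -0.67, -0.73 and -1.02 in Dunn_86, -2.62, -2.99 and -3.26 in LM8_24 and -3.74, -2.96 and -3.12 in LM8_91. LM8 arrays were below Dunn arrays at both passages. The late line difference was -2.47 (5.53-fold, SE 0.29, adjusted p 0.0158 in limma) and the early one -1.39 (adjusted p 0.0643), and a second probe gave -2.51 and -1.63. The late call held only without Dunn_86 replicate 1 among the fits that left out an array (adjusted p up to 0.1). On unscaled values the early difference was 0.08 and the late one -1.6 (adjusted p 0.179).

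Smoc1, a calcium-binding protein that acts on BMP signalling, was the 1 member that rose with passage. Its values of -8.38, -7.80 and -8.79 in LM8_24 were not well above background and those of -4.18, -4.35 and -4.23 in LM8_91 were, an increase of at least 11.5-fold (log2 difference 4.07, SE 0.28, adjusted p 0.00122 in limma), with 4.20, 3.44 and 4.57 within the slides. With normexp background correction the difference was 0.73 (adjusted p 0.259), and the call was lost. In Dunn_25 it was not detected (-5.56, -7.93 and -6.92) and in Dunn_86 it was detected on replicate 1 only (-3.79, against -6.67 and -8.36). Its passage changes did not differ between the lines at the adjusted level (3.54, SE 1.40, interaction adjusted p 0.741).

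Genes that work on basement membranes were read from lists of receptors, assembly factors, other sheet proteins and cutting enzymes. Of 13 receptors, 0 were called higher and 1 lower with passage in Dunn (Itga1, a collagen-binding integrin, -1.39, adjusted p 0.636 in limma) and none in LM8. Of 13 secretion, assembly and crosslinking factors, none was called in Dunn and 1 was called in LM8, Fbln2, fibulin-2, a binding partner of nidogen and laminin, which rose by 2.24 (adjusted p 0.0153) and whose passage change differed between the lines by 3.36 (interaction adjusted p 0.0455). Of 11 measured other proteins of the sheet, 2 were called lower in either line. These were Tgfbi, an adhesion protein, at -1.46 (adjusted p 0.439) in Dunn and -2.13 (adjusted p 0.00185) in LM8, and Ntn1, netrin-1, at -2.30 in Dunn and -2.51 (adjusted p 0.0593) in LM8, with its late groups near background. Of 10 enzymes that cut the sheet, 1 was called lower in Dunn, Plau, the urokinase, at -1.68 (adjusted p 0.548), and none in LM8. Over all genes, 1.34% were called higher and 3.52% lower with passage in Dunn, and 2.54% and 4.75% in LM8. At the adjusted level 0 of the 47 listed genes were called in Dunn and 2 (4.26%) in LM8, beside 0.00497% and 2.82% of all genes.

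Between the lines, 4 of the 47 listed genes (8.51%) were called at the adjusted level at early and 6 (12.8%) at late passage, beside 4.55% and 3.83% of all genes. Itga3, a laminin-binding integrin chain, was lower in LM8, with differences of -2.29 at early (adjusted p 0.0143 in limma) and -2.73 at late passage (adjusted p 0.00734). Mmp2, a gelatinase that cuts collagen IV, was higher in LM8 by 3.22 (adjusted p 0.00305) and 2.95 (adjusted p 0.00403), and Hpse, heparanase, by 3.63 (adjusted p 0.0448) and 4.14 (adjusted p 0.00749). In Dunn cells Hpse was well above background on 1 of 3 arrays at either passage. Tgfbi was higher in LM8 by 2.70 (adjusted p 0.00528) and 2.02 (adjusted p 0.0107). At late passage Fbln2 was also higher in LM8, by 3.37 (adjusted p 0.0177), and Loxl2, an enzyme that crosslinks collagen IV, was lower, with a difference of -1.62 (adjusted p 0.0420). The listed genes were not examined on unscaled values, with the slide as a block or without single arrays, as the members were. How far their calls hold under these settings is not known.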

How the data were processed

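Total RNA of 12 samples, 4 groups of 3, was labelled with Cy3 and hybridised to 1-colour Agilent mouse arrays. The authors deposited the scanner output of each array, per the labels made with Agilent Feature Extraction 10.7.3, in which the processed signal is a spot intensity after background subtraction, and a table of the same intensity values, rounded and unscaled (largest relative difference 0.5%). Intensities of the first array's file are rounded to 3 digits. The paper names another RNA extraction reagent than the labels do.

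From these files the log2 intensity minus that of the 75th percentile of its array was computed over 39429 probes (43020 spots besides controls). Spots flagged as outliers were left out, also for detection, and spots of a probe averaged. Of the probes, 26581 (67.4%) were matched to 20144 genes by accession. A gene was read by its probe with the highest mean. Two-group fits, and 1 fit over 12 arrays for the difference of passage effects, used limma 3.58.1 (lmFit, eBayes) in R 4.3.3 with Benjamini-Hochberg adjustment over all probes. Simulated data with independent noise served only to check that added differences were recovered on average. That check held no slide effect and set no criterion on false calls, so it does not test the p-values. Per-array values and full statistics are given for Col4a1, Col4a2 and members called at the adjusted level. The members and lists were chosen with earlier results of these data known. The files name the mm9 build, and names and promoter sequences come from RefSeq (GRCm38.p6). The arrays hold no read depth, and their number limits the precision.

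Alternatives were the unscaled table, normexp (offset 50) as background correction, quantile normalization, a floor on dim signals, only detected probes, the slide as a block, 1 fit over all arrays, array weights, the mean of a gene's probes, the methods' t-test and leaving out each array. The files hold no mean signal, so normexp used the median signal.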

Additional observations from a re-analysis of the deposited data

Results flagged for a closer look

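The change with passage differed between the lines for 2 members in a test of that difference over all 12 arrays. For Lama1 the LM8 change minus the Dunn change was -5.11 on the log2 scale (SE 0.46, adjusted p 0.00145 in limma), and its late LM8 signals were not well above background, so the size rests on dim values. For Lamb1 it was -2.95 (SE 0.45, adjusted p 0.0255 in limma), from signals detected on every array. Among fits that left out an array, the Lamb1 difference passed the adjusted level in 2 of 12 and that of Lama1 in 12 of 12. With normexp background correction the values were -1.48 (adjusted p 0.578) for Lama1 and -2.54 (adjusted p 0.0595) for Lamb1. Their causes were not tested.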

How the results depend on the processing

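The number of called members moved by over 1.5 times under some settings, and the cause was not tested. With normexp background correction it was 6 in Dunn and 3 in LM8 with passage and 0 for the difference of passage effects (29 of all genes were then called), with only probes well above background it was 10 between the early lines, which tests fewer genes, and with array quality weights it was 6 for the difference of passage effects. Leaving out 1 array gave 5 to 11 in Dunn, 9 to 11 in LM8, 13 to 18 and 10 to 12 between early and late lines, and 1 to 3 for the difference of passage effects. Directions reversed for Lama2 in Dunn with normexp (-0.76), for Smoc1 between early lines with quantile normalization (0.10) and for Dag1 (0.07) and Tinagl1 (0.08) there on unscaled values. Of 723 values of named members under alternatives, 627 kept direction and call, 92 kept direction only and 4 reversed. A call in this count is at the level of the study, and at the adjusted level only for the difference of passage effects. Col4a1 with passage in LM8, for example, kept direction and call in 15 of 15 alternatives by this count. Its call at the adjusted level held in 1 of 6 fits that left out an array.

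The member medians moved past the spread in 14 of 80 cases: in Dunn to -0.79 (normexp) and 0.63 (unscaled), in LM8 to -0.16 (quantile), -0.22 (normexp), -0.06 (unscaled), -0.18 (floor on dim signals), -0.25 (detected probes) and -0.28 (without LM8_91 replicate 2), between early lines to -0.39 (quantile) and 0.07 (unscaled), between late lines to -0.07 (quantile), 0.24 (unscaled) and -0.88 (floor), and for the difference of passage effects to -0.28 (unscaled).

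Same-numbered arrays, which shared a slide, deviated together in 12 of 18 pairs (r from -0.23 to 0.683, over 0.1 in those 12). The main fits did not take the numbers to pair the samples in any comparison. This includes the passage comparison in Dunn, where all 3 pairs were over 0.1, so its main p-values leave that pairing out. The slide as a block is given as an alternative. With the replicate block the counts were 11, 9, 16, 11 and 2, and at the adjusted level 0, 4, 2 and 1 in the 4 two-group comparisons. Over all genes, calls in Dunn numbered 978, and 3087 with the block, 6081 with array weights, 1519 with quantile normalization and 1662 unscaled. In LM8 they numbered 1468, and 427 with normexp and 851 in 1 fit over all arrays. Between early lines they numbered 7386, and 3481 with quantile normalization, 2689 over detected probes and 3880 by the methods' t-test. For the difference of passage effects they numbered 122, and 264, 29, 61, 305 and 653 with quantile normalization, normexp, unscaled values, detected probes and array weights. For the 5 of 31 members near background on every array no fold is given, and members dim in 1 group have only bounds.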
